A study of Ictalurus furcatus with 60 samples.

Results

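Fresh sperm of 30 male blue catfish (Ictalurus furcatus) gave 30 RNA sequencing libraries, and these fell along a range from libraries in which few genes held much of the counts to libraries in which the counts were spread over most genes. The ends of this range are described here as 11 concentrated and 11 even libraries, 22 of the 60 libraries of the series. A fresh library was called concentrated when its median gene lay under 5 CPM (counts per 1000000 counts of the library, with no other scaling) and even when its median gene lay over 12 CPM, taken over all 33677 genes listed. The other 8 fresh libraries lay between these limits. The groups were therefore made from the measured values themselves, and every difference between them in fresh sperm is a description with no test.

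The sperm of each male was divided, per the labels' protocols, into a portion frozen directly, labelled fresh, and a portion taken through cryopreservation, and each portion gave 1 library. The concentrated libraries came from males 4, 5, 6, 8, 9, 11, 12, 16, 22, 34 and 36, and the even libraries from males 1, 2, 3, 15, 17, 20, 23, 25, 31, 37 and 42. Both groups are fresh sperm of the same species, and the labels give no other property by which they differ. The series looks for transcripts in cryopreserved sperm that go with hatch success, and hatch rates were not used here.

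Blue catfish males are used to fertilise eggs of channel catfish females in aquaculture. In vertebrates, transcription largely stops in late spermatids, when the chromatin is compacted, so that the RNA of mature sperm is mainly carried over from earlier stages of spermatogenesis. Semen can also hold other germ cells, blood cells and cells of the reproductive tract. The identifiers in the deposited tables are not paired with gene names, and a search of RefSeq's 26870 entries for assembly Billie_1.0 matched 0 of the 33677. No gene is given a name, function or sequence here for that reason, and the label sperm could not be checked against marker genes. In RNA from whole samples, fewer cells of a type and less RNA per cell cannot be told apart.

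Males 1, 2, 3 and 4 stood apart from the other grouped males in a way that bears on all comparisons with cryopreserved sperm. The fresh libraries of males 1, 2 and 3 were even, with a median gene of 13.4, 13.6 and 13.5 CPM. Their cryopreserved libraries had 4.21, 5.92 and 3.69 CPM in the same order. Male 4 had the opposite order, with 3.86 CPM in the fresh and 13.4 CPM in the cryopreserved library. The cryopreserved library of male 4 was closest to the fresh library of male 1 among all other libraries (Pearson r = 0.985 across 31016 genes, on log2 of CPM + 1, genes not being independent replicates). A closest library from another male was not particular to males 1 to 4. The fresh library of male 20 was closest to the cryopreserved one of male 31 (r = 0.984). That of male 23 was closest to the cryopreserved one of male 37 (r = 0.990). Some were closest to their own male's other library, such as fresh male 37 (r = 0.988). The fresh and cryopreserved libraries of the same male had r from 0.614 to 0.782 in males 1 to 4 and from 0.910 to 0.989 in the other 18 males of both groups. Among the 8 males between the limits it was also low in some, with 0.721 in male 28, 0.797 in male 41, 0.809 in male 35 and 0.872 in male 39. Whether the treatment labels of these males are right was not tested. In cryopreserved sperm the median gene, the gene calls and the named genes are given with and without males 1 to 4. The other library measures are not given without all 4 of them.

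The median gene of the concentrated libraries lay between 2.20 and 3.90 CPM, with a median over libraries of 2.33. In the even libraries it lay between 12.4 and 13.8 CPM, with a median of 13.6. Just inside the lower limit was male 8 with 3.90 CPM and just outside it male 27 with 5.28 CPM. Just inside the upper limit was male 17 with 12.4 CPM and just outside it male 24 with 11.7 CPM.

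A share of 50% of all counts was held by 841 to 1456 genes in the concentrated libraries and by 3402 to 3824 genes in the even libraries. The 10 most abundant genes of a library held 3.75% ± 1.04 of the counts in the concentrated and 0.986% ± 0.211 in the even libraries (SD, n = 11 each). The 1000 most abundant genes held 42.4% to 53.5% in the concentrated and 23.3% to 25.4% in the even libraries. Between 54 and 97 genes exceeded 1000 CPM in a concentrated library, and between 1 and 7 in an even one. At the other end of the range, 9996 to 13828 genes lay under 1 CPM in a concentrated library and 840 to 2327 in an even one. The groups did not overlap on any of these measures, but some libraries between the limits lay within the range of a group. In males 27, 28 and 41, 1334, 1386 and 1352 genes held 50% of the counts, within the concentrated range. The 10 most abundant genes held 5.23% in male 35, whose median gene lay at 10.4 CPM. In males 24 and 43, 1994 and 2264 genes lay under 1 CPM, within the even range.

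**Figure D1:**
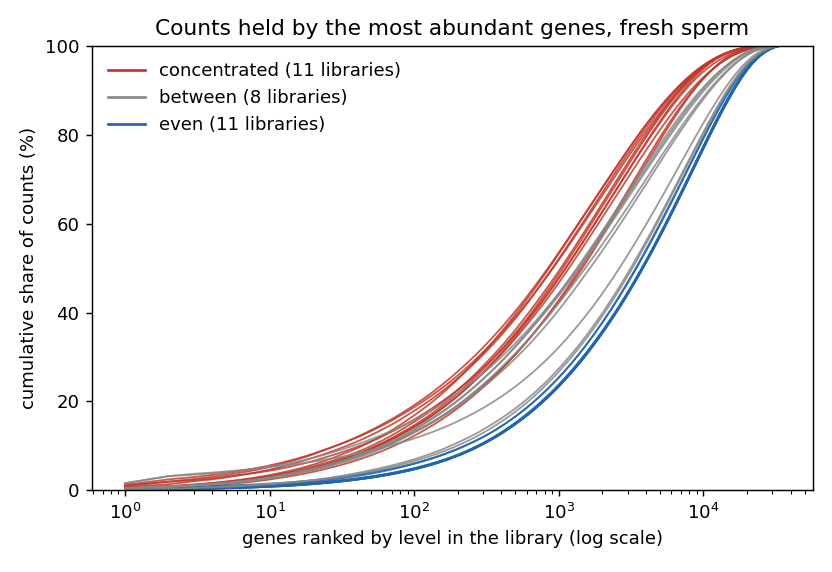
Cumulative share of counts (%, vertical axis) held by the most abundant genes of a library (number of genes on a log axis), 1 line per fresh library, coloured by group. The 11 concentrated libraries reach 50% with 841 to 1456 genes and the 11 even ones with 3402 to 3824 genes. Of the 8 others, those of males 27, 28 and 41 lie within the concentrated range (1334, 1386 and 1352 genes). The rest lie between the groups.

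Depth did not separate the groups in fresh sperm by range. Total counts ran from 1717039 to 22472870 in the concentrated and from 5166699 to 21488877 in the even libraries, but 5 concentrated and 1 even library held under 50% of the median total of the series. The 6 concentrated libraries above that mark had a median gene of 2.20 to 3.87 CPM and the 10 even ones 12.4 to 13.8 CPM. With every library thinned to 900000 counts, 21337 to 25004 genes had a count in the concentrated and 31325 to 32126 in the even libraries. Fewer genes were thus listed with a count in the concentrated libraries at equal depth as well.

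The share of low counts divisible by 2, a property of how counts fell on genes, also differed in the fresh libraries. Among genes with 1 to 20 counts, it was 62.7% ± 5.63 in the concentrated and 54.7% ± 2.99 in the even libraries (SD, n = 11 each). In the libraries above 50% of the median total it ran from 53.3% to 66.8% in 6 concentrated and from 51.6% to 58.8% in 10 even libraries. How reads were assigned to genes, and whether both mates of a pair counted, is not stated in the labels, and the part of either in this difference was not tested.

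Of 31016 genes whose mean over the 22 libraries reached 1 CPM, 3254 (10.5%) were higher in every concentrated than in every even library, and 17109 (55.2%) were lower in every concentrated library. The remaining 10653 genes overlapped. The minimum of 1 CPM was a mean over both groups, so a gene low in one group could pass through the other. Because the CPM in each library add up to the same total and the groups were defined on the median gene, an excess of lower genes was set by the choice of libraries. Scaled by TMM (trimmed mean of M-values, which centres the bulk of genes), 7136 genes were higher and 9596 lower without overlap, among 29109 genes with such a mean.

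The 3254 concentrated-high genes were mostly well expressed in both groups. Their mean levels had a median of 101.4 CPM in the concentrated and 28.9 CPM in the even libraries. Of these genes, 1640 had a mean above 100 CPM and 73 a mean above 1000 CPM in the concentrated libraries. The median ratio of the means was 3.68-fold, and the middle 80% of genes lay between 2.01-fold and 7.49-fold. The highest ratio was 32.5-fold. Together these genes held 54.4% to 65.9% of the counts of a concentrated library and 10.2% to 24.1% of those of an even library.

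The 17109 even-high genes had lower levels and larger ratios. Their mean levels had a median of 16.4 CPM in the even and 1.34 CPM in the concentrated libraries, a median ratio of 13.6-fold. In the concentrated libraries 7644 of them had a mean under 1 CPM, so these passed the minimum only through the even libraries. Yet only 4 of the 17109 had no count in any concentrated library. The even-high genes also included abundant ones, since 1365 had a mean above 100 CPM in the even libraries. They held 50.3% to 64.9% of the counts of an even library and 7.75% to 12.8% of those of a concentrated one.

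The ratios of CPM without other scaling were not symmetric, which the limits on the median gene largely set. Over all 31016 genes, 1645 had a mean 4-fold or more higher and 16057 a mean 4-fold or more lower in the concentrated libraries. At 16-fold or more there were 4 higher and 7648 lower genes. The log2 ratio of means, concentrated over even, had a median of -2.15, a 10th percentile of -4.79 and a 1st percentile of -6.06.

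**Figure D2:**
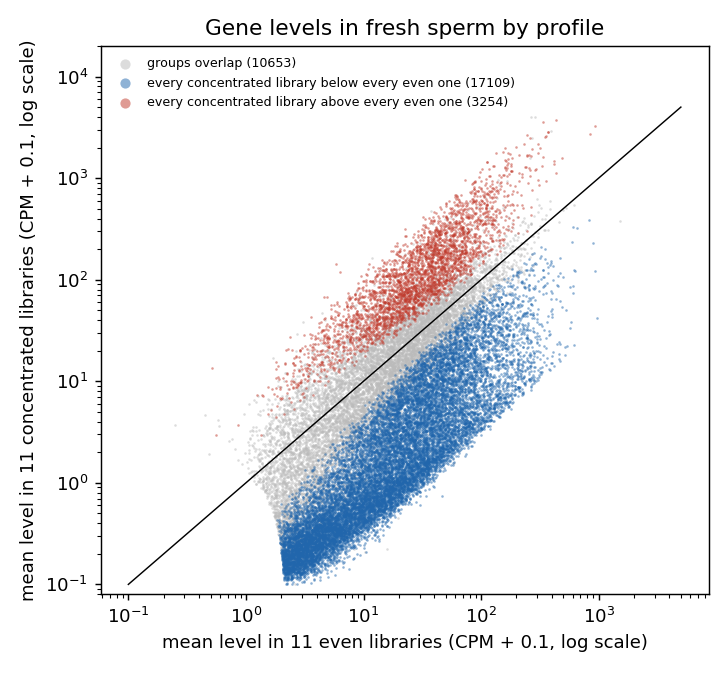
Mean level of each of 31016 genes in the 11 even (horizontal axis) and the 11 concentrated fresh libraries (vertical axis), both as CPM + 0.1 on log axes, 1 point per gene, with the line of equal levels. The 3254 red genes lie above the line and the 17109 blue genes below it, and the blue genes extend up to 959.0 CPM in the even libraries.

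The most abundant genes of the groups were largely different genes. Ranked by group mean, the leading 100 genes of the concentrated and of the even libraries had 13 genes in common. The 100 of the concentrated group had a median of 1292 CPM there and 179.2 CPM in the even libraries, and 92 of them were concentrated-high. The 100 of the even group had a median of 404.5 CPM there and 89.1 CPM in the concentrated libraries. Of these, 75 were even-high, and 12 were concentrated-high.

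The concentrated libraries shared most of their abundant genes with the mean of their group. Each library is part of its group mean, so some of this overlap is built in. Of the 100 most abundant genes of each concentrated library, 82 to 91 were among the 100 of the group mean. In 9 of the even libraries 84 to 92 were among the 100 of the even mean. The even libraries of males 15 and 17 were exceptions, with 55 and 44. These libraries held 45 and 59 of the 100 most abundant genes of the concentrated group, against 3 to 19 in the other even libraries. They also gave the largest shares of counts to the concentrated-high genes within the even group, 21.2% and 24.1%, against 10.2% to 15.0% in the others.

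Libraries were alike within groups across the whole set of genes. Pearson's r on log2 of CPM + 1 had a median of 0.951 over the 55 pairs of concentrated libraries and 0.958 over the 55 pairs of even libraries. Over the 121 pairs of a concentrated and an even library the median was 0.608, and the highest was 0.804. The spread differed between gene lists. The median SD of a gene's log2 of CPM + 1 among the concentrated libraries was 0.30 for the concentrated-high and 0.48 for the even-high genes, and among the even libraries it was 0.34 and 0.23. Over all genes considered it was 0.47 among the concentrated and 0.25 among the even libraries, close to the values of the even-high genes. The lists were chosen for no overlap, which favours a small spread. Their levels differed as well. In the concentrated libraries the median of mean levels was 1.34 CPM for the even-high and 101.4 CPM for the concentrated-high genes. Low levels rest on few counts, and the part of this in the spread was not tested.

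The 8 libraries between the limits had intermediate levels for most listed genes, which their intermediate median gene and the choice of the lists largely set. The share of concentrated-high genes that lay between the means of the groups ran from 71.9% in the library of male 27 to 99.3% in that of male 24. For the even-high genes it ran from 72.7% in male 41 to 97.8% in male 44. The concentrated-high genes held 27.9% to 56.5% of the counts of these libraries.

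Individual genes are given by their identifiers. By the rule for named genes, these were the 2 highest and the 2 lowest differences in mean log2 of CPM + 1 among genes without overlap of the groups and averaging at least 10 CPM. In the fresh concentrated libraries AUIFUG00000015759 had a lowest level of 1129, a median of 1700 and a highest level of 2212 CPM. In the even libraries it had 13.99, 84.0 and 473.5 CPM, and the means differed 13.02-fold. AUIFUG00000015665 had 721.6, 1044 and 1158 CPM in the concentrated and 8.86, 55.2 and 219.8 CPM in the even libraries, 13.1-fold by the means. For both genes the highest even library lay well below the lowest concentrated one.

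The even-high genes named showed the reverse order. AUIFUG00000002027 had a lowest level of 208.7, a median of 272.5 and a highest level of 298.0 CPM in the even libraries. In the concentrated libraries it had 0.304, 8.59 and 23.8 CPM, and the mean was 30.0-fold higher in the even group. Some of these levels rest on few counts, with 4 in male 12 and 2 in male 9, against 345 in male 5. AUIFUG00000013478 had 232.3, 273.3 and 290.4 CPM in the even and 1.90, 5.67 and 21.7 CPM in the concentrated libraries, 32.8-fold by the means. Its counts in the concentrated libraries ran from 8 in male 9 to 314 in male 5. Within the even group the levels of these genes were tight, with an SD of 30.5 CPM for AUIFUG00000002027 and 19.7 CPM for AUIFUG00000013478 (n = 11 each). In the 8 libraries between the limits AUIFUG00000002027 had 45.5 to 195.6 CPM and AUIFUG00000013478 had 53.3 to 189.7 CPM, which overlapped neither group. AUIFUG00000015759 reached 1634 CPM and AUIFUG00000015665 1000.5 CPM there, within the range of the concentrated libraries.

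**Figure D3:**
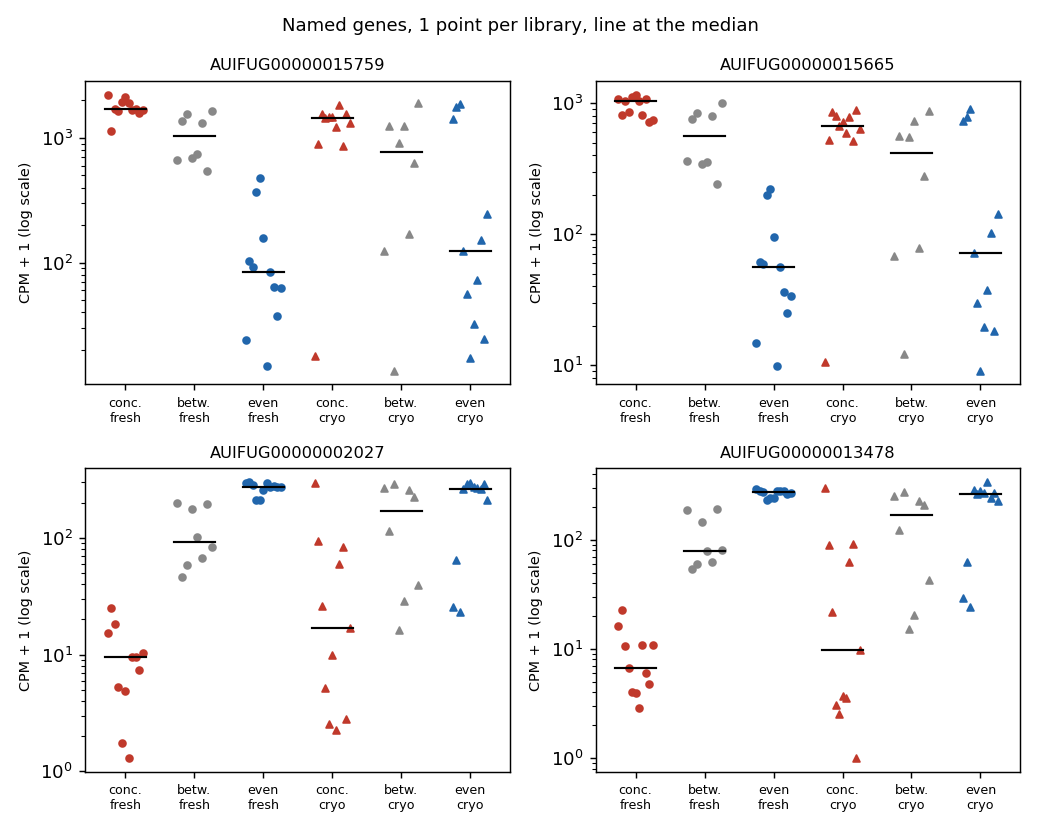
Levels of the 4 named genes (CPM + 1, log axes) in every library, grouped by treatment and by the profile of the male's fresh library, with a line at each median. In fresh sperm the concentrated and even libraries do not overlap, while in cryopreserved sperm 1 concentrated male and 3 even males lie with the other group.

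In cryopreserved sperm, where the libraries had no part in the grouping, the same males still differed in profile, with 4 males against the direction. The cryopreserved libraries of the 11 males with a concentrated fresh library had a median gene between 1.71 and 13.4 CPM, and those of the 11 males with an even fresh library between 3.69 and 13.9 CPM. The means were 4.77 ± 3.53 and 11.0 ± 4.16 CPM (SD, n = 11 each), a difference of -6.22 CPM (permutation test, two-sided, p = 0.00248, adjusted p = 0.0061 over 5 library measures). Scaled by TMM, the difference was -2.07 CPM (permutation test, two-sided, adjusted p = 0.0104). Without males 1 to 4 the ranges of unscaled CPM were 1.71 to 7.88 and 12.2 to 13.9 CPM and did not overlap. These males were left out because their cryopreserved libraries went against the order, so the values without them are a description.

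By the same limits applied to the cryopreserved libraries, 12 were concentrated, 13 even and 5 between. Of the 11 males with a concentrated fresh library, 7 were concentrated, 3 between and 1, male 4, even after cryopreservation. Of the 11 with an even fresh library, 8 were even, 2, males 1 and 3, concentrated, and 1, male 2, between. The 8 males whose fresh library lay between the limits gave 3 concentrated, 4 even and 1 between.

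The other library measures moved together with the profile in cryopreserved sperm. The 10 most abundant genes held 4.80% ± 3.36 of the counts in concentrated and 1.78% ± 1.01 in even males (SD, n = 11 each; permutation test, two-sided, p = 0.00366, adjusted p = 0.0061). With libraries thinned to 900000 counts, 24687 ± 4014 and 30283 ± 2778 genes had a count (permutation p = 0.00232, adjusted p = 0.0061). Depth itself differed, with a mean log2 total of 22.45 ± 1.42 in concentrated and 23.90 ± 0.74 in even males (permutation p = 0.0083, adjusted p = 0.0104). The share of counts from 1 to 20 divisible by 2 was 60.6% ± 7.92 and 54.0% ± 1.77 (permutation p = 0.0162, adjusted p = 0.0162).

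The differences in means were smaller when males with a shallow library were left out. Without the 7 males that had a library under 50% of the median total, 6 of them concentrated, 5 concentrated and 10 even males were left. The median gene then differed by -3.18 CPM (exact permutation test, two-sided, p = 0.176, adjusted p = 0.467). The share of low counts divisible by 2 turned to a difference of -1.12 percentage points (exact permutation p = 0.374, adjusted p = 0.467). Males 1 to 4 were all among those left. Of the rest, concentrated males 5, 6, 16 and 22 had a median gene of 3.64 to 7.88 CPM in cryopreserved sperm. The even males among the rest had 12.2 to 13.9 CPM. Because males 1 to 4 are set aside for their values, these ranges are a description. The part of depth, or of males 1 to 4, in the smaller differences was not tested.

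The gene lists from fresh sperm were then read in cryopreserved sperm. The share of counts held by the 3254 concentrated-high genes ran from 47.9% to 63.9% in 10 of the 11 concentrated males, and was 10.2% in male 4. In the even males it ran from 10.2% to 23.5% in 8, and was 59.0%, 55.9% and 62.8% in males 1, 2 and 3. Large differences between the libraries of one male were also present between the limits, where male 28 had 55.5% in the fresh and 10.2% in the cryopreserved library, and male 41 had 49.7% and 17.1%. The even-high genes went the other way, with 7.30% to 26.5% in 10 concentrated males and 65.2% in male 4. In the even males they held 49.0% to 63.9% in 8, and 13.5%, 18.9% and 11.6% in males 1, 2 and 3.

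**Figure D4:**
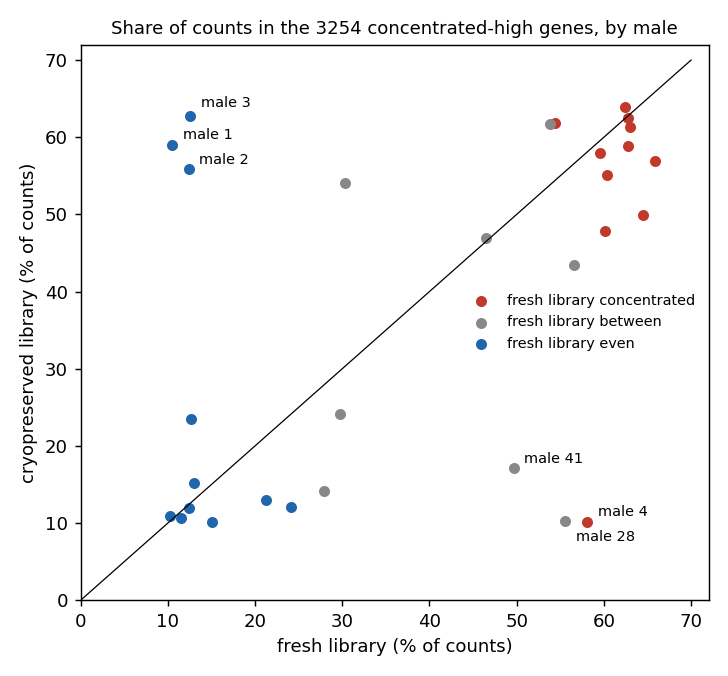
Share of counts (%) held by the 3254 concentrated-high genes in the fresh (horizontal axis) and the cryopreserved library (vertical axis) of each of 30 males, 1 point per male, coloured by the profile of the fresh library, with the line of equal shares. Males 1, 2 and 3 lie at the upper left with 55.9% to 62.8% after cryopreservation, and male 4 at the lower right with 10.2%.

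How many genes were called between concentrated and even males in cryopreserved sperm differed widely with the tool and scaling. The quasi-likelihood test of edgeR (TMM, Benjamini-Hochberg adjusted p under 0.05) was run on 29816 genes, and 695 (2.33%) were called, 294 (0.986%) higher and 401 (1.34%) lower in concentrated males. The median log2 fold change over all genes was -0.26. With scaling by library size alone, as in the CPM above, that median was -1.08 and 15129 genes (50.7%) were called, 2303 (7.72%) higher and 12826 (43.0%) lower. Both counts were larger than with TMM, and higher genes made up 15.2% of the calls against 42.3% with TMM. With every male included, DESeq2 called 18444 genes (61.9%) and limma voom 16794 (56.3%). With log2 total counts as a covariate, edgeR called 0 genes, with 2903 at an unadjusted p under 0.05. In the edgeR fit with TMM and every male, 14121 genes had an unadjusted p under 0.05. The count of calls changed with single males. It was 3956 to 15389 without male 1, 2, 3 or 4 in turn, 1127 without male 5, 801 without male 22, and 0 to 272 without any one of the other 16 males. In the 6 such fits with 0 calls, the lowest edgeR adjusted p was 0.0501 to 0.0609. In these fits 11482 to 11734 genes had an unadjusted p under 0.05. Without males 1 to 4 together, a choice made after seeing the data and by the values of these males, 23779 of 31541 genes (75.4%) were called, 9827 (31.2%) higher and 13952 (44.2%) lower.

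The fresh concentrated-high genes had higher fitted levels in concentrated males in nearly every case, and few of them passed the test. All 3254 were tested, and 3253 had a positive log2 fold change, against 42.4% of all genes tested. Their median log2 fold change was 1.29, against -0.26 over all genes. Only 34 (1.04%) were called higher (edgeR, adjusted p under 0.05), a share near the 0.986% of all genes. With scaling by library size alone 1664 (51.1%) were called higher, beside 7.72% of all genes. By other tests on the same counts, 2708 were called higher with DESeq2, which called 17.2% of all genes higher, and 3237 with limma voom, which called 23.6% of all genes higher. Without males 1 to 4 the corresponding list held 3326 genes, and their median log2 fold change was 3.11. All 3326 were called higher, beside 31.2% of all genes tested. These males were left out for their cryopreserved values, so this is a description.

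Most fresh even-high genes had a negative fitted difference, and few of them passed the test. Of the 17109 genes 16048 passed the filter on low counts and were tested, and 14878 (92.7%) of those had a negative log2 fold change, against 57.6% of all genes tested. Their median was -0.82. Of these genes, 300 (1.87%) were called lower (edgeR, adjusted p under 0.05), beside 1.34% of all genes called lower. With scaling by library size alone 10960 (68.3%) were called lower, beside 43.0% of all genes. DESeq2 called 12173 of them lower, beside 44.7% of all genes, and limma voom 9218, beside 32.7% of all genes. Without males 1 to 4, left out for their values, the corresponding list held 17193 genes. Of its 17118 genes tested, 12617 (73.7%) were called lower and 328 higher. Of all genes tested in that fit, 44.2% were called lower and 31.2% higher.

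**Figure D5:**
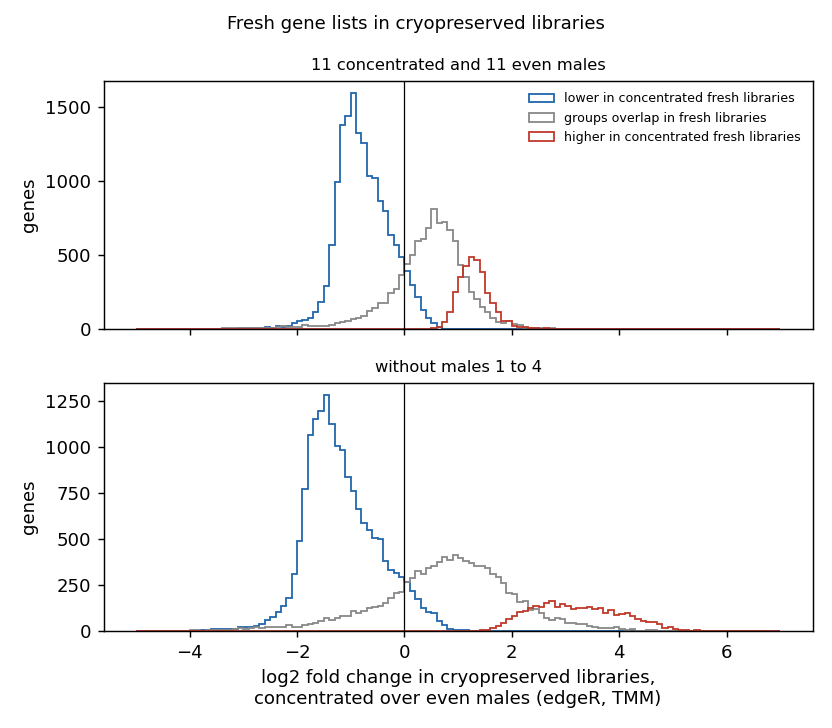
Distribution of the log2 fold change in cryopreserved libraries (concentrated over even males, horizontal axis; number of genes, vertical axis) for the lists made in fresh libraries, with every grouped male (upper panel) and without males 1 to 4 (lower panel). Both panels use the lists made with all 22 fresh libraries: the concentrated-high genes have a median of 1.29 in the upper panel and lie farther to the right of 0 in the lower one.

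The named genes followed the lists. In cryopreserved sperm AUIFUG00000015759 had a lowest level of 17.0, a median of 1438 and a highest level of 1839 CPM in concentrated males and 16.4, 122.5 and 1873 CPM in even males. The fitted difference was 1.35 on the log2 scale (SE 0.98, edgeR adjusted p = 0.244). For AUIFUG00000015665 it was 1.43 (SE 0.92, edgeR adjusted p = 0.197). AUIFUG00000002027 had 1.28, 15.9 and 292.7 CPM in concentrated and 22.4, 261.6 and 294.6 CPM in even males, a log2 difference of -1.37 (SE 0.59, edgeR adjusted p = 0.0831). For AUIFUG00000013478 it was -1.45 (SE 0.67, edgeR adjusted p = 0.0951). With edgeR and TMM none of these 4 genes passed the threshold with every male included, and the groups overlapped for each. Other fits with every male called some of them. With limma voom the adjusted p was 0.0226 for AUIFUG00000015759, 0.0178 for AUIFUG00000015665 and 0.0483 for AUIFUG00000002027. With DESeq2 it was 0.018 for AUIFUG00000002027 and 0.0248 for AUIFUG00000013478. With males 1 to 4 left out, the levels of the groups did not overlap for any of the 4. The log2 difference was then 5.22 for AUIFUG00000015759 (SE 0.56) and 5.01 for AUIFUG00000015665 (SE 0.54). It was -2.01 for AUIFUG00000002027 (SE 0.56) and -2.11 for AUIFUG00000013478 (SE 0.65). These are given with no p because males 1 to 4 were left out for their values. There were 35 alternatives, the fit without males 1 to 4 included, and the fit without male 4 is among them more than once. That fit called AUIFUG00000002027 and AUIFUG00000013478, which raises their counts. AUIFUG00000015759 was called in 2, AUIFUG00000015665 in 2, AUIFUG00000002027 in 10 and AUIFUG00000013478 in 6. The adjusted p reached up to 0.788, 0.760, 0.734 and 0.734 in the same order, and the sign was the same in each alternative.

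When the cryopreserved libraries were instead grouped by their own median gene with the same limits, which is a description with no test, 2311 of 31111 genes (7.43%) were higher in every one of the 12 concentrated than in every one of the 13 even libraries and 15195 (48.8%) were lower. The same limits on the same measure chose these libraries, so much of the overlap with the fresh lists was set by that choice. Of the 3254 fresh concentrated-high genes 2102 (64.6%) were on this list, which is 91.0% of the cryopreserved list. Of the 17109 fresh even-high genes 14066 (82.2%) were on the corresponding list, 92.6% of it. No gene, 0 in each direction, was on opposite lists in fresh and cryopreserved sperm.

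Some identifiers had the same counts. Leaving out genes with no count at all, 85 genes had counts equal to those of another gene in each of the 60 libraries, 18 of them concentrated-high and 30 even-high, and whether they share reads was not tested. None of the 4 named genes was among them.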

How the data were processed

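The deposited values are raw counts of reads on genes, not normalized, in 1 table for each treatment. Tools named in the submitters' processing notes are FastQC 0.11.6, Trimmomatic 0.39, TopHat2 2.1.1 and bedtools. Which genome, gene models and rule for assigning reads were used, the labels do not say. Per the labels' protocols, the Zymo-Seq RiboFree kit was used, while the molecule is labelled polyA RNA. Total counts ran from 929243 to 62118941 per library, and 3 counts are 3.23 CPM in the shallowest, so low levels are least certain there. All 60 columns were assigned, 0 were left unused, and the fresh column of male 43 was assigned by male and treatment.

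Profiles were taken from CPM of the fresh table, and genes averaging at least 1 CPM over both groups were compared by overlap of the groups. Counts of cryopreserved libraries were tested with edgeR 4.0.16 (R 4.3.3, filterByExpr, TMM, quasi-likelihood, tested on simulated data), with DESeq2 1.42.0 and limma voom 3.58.1 as alternatives. The genes named are the 2 highest and 2 lowest differences in mean log2 of CPM + 1 among genes of at least 10 CPM without overlap. Standard errors were taken from the F statistic. Library measures were tested with 100000 permutations, or exactly for groups under 10 (scipy 1.17.1), adjusted over 5 measures. P-values measure the spread between these males, with 1 library each. The members, limits and lists were chosen with earlier results of these data known. Lists of cell type markers could not be used, since no identifier had a symbol.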

Additional observations from a re-analysis of the deposited data

How the results depend on the processing

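In fresh sperm, genes higher in every concentrated library numbered 7136 (24.5% of 29109 considered) with TMM scaling. They numbered 3123 (18.4% of 16994) with a minimum of 10 CPM and 2546 (8.21% of 31008) with thinned libraries. With limits of 4 and 13 CPM they numbered 3906 (12.7% of 30787), and with limits of 6 and 11 CPM 2338 (7.58% of 30828). With each male left out there were 3255 to 3620, against 3254 (10.5% of 31016) in the main comparison. Genes lower in every concentrated library numbered 9596 (33.0%) with TMM, 8177 (48.1%) with a minimum of 10 CPM and 10892 (35.1%) with thinned libraries. They numbered 18242 (59.3%) with limits of 4 and 13 CPM and 14406 (46.7%) with limits of 6 and 11 CPM. With each male left out there were 16981 to 17785, against 17109 (55.2%) in the main comparison. Leaving out a library can only remove overlap, apart from its effect on the minimum of 1 CPM. These counts could therefore hardly fall when a male was left out. In cryopreserved sperm, counts are given as all calls, higher, lower, concentrated-high called higher and even-high called lower. Percentages are of all genes tested, and for both lists of their genes tested. The lists were remade from the fresh libraries wherever the males or limits changed. DESeq2 size factors gave 13401 (44.9%), 3766 (12.6%), 9635 (32.3%), 1995 (61.3%) and 8908 (55.5%). Library size alone gave 15129 (50.7%), 2303 (7.72%), 12826 (43.0%), 1664 (51.1%) and 10960 (68.3%). The DESeq2 Wald test gave 18444 (61.9%), 5123 (17.2%), 13321 (44.7%), 2708 (83.2%) and 12173 (75.9%). For limma voom they were 16794 (56.3%), 7050 (23.6%), 9744 (32.7%), 3237 (99.5%) and 9218 (57.4%). Thinning to 900000 counts left 13643 genes to test, with 3060 concentrated-high and 5674 even-high genes among them. It gave 7537 (55.2%), 3455 (25.3%), 4082 (29.9%), 2094 (68.4%) and 3956 (69.7%). The fresh median as a number gave 10133 (31%), 3025 (9.24%), 7108 (21.7%), 1051 (32.3%) and 6550 (38.3%). Without male 4 they were 15389 (52.1%), 6233 (21.1%), 9156 (31%), 2280 (69.5%) and 8766 (54.6%). Without males 1 to 4, chosen after seeing the data, they were 23779 (75.4%), 9827 (31.2%), 13952 (44.2%), 3326 (100%) and 12617 (73.7%). All 5 counts were 0 in edgeR with log2 total counts as a covariate (2903 genes at an unadjusted p under 0.05), with limits of 4 and 13 CPM (8593), with limits of 6 and 11 CPM (9165) and without the 7 males with a shallow library (2209). The main fit had 14121 genes at an unadjusted p under 0.05. The median log2 difference of the concentrated-high genes under these settings was 0.88, 1.07, 1.14 and 0.75 in the same order, against 1.29. These are medians of different lists, of 3254, 3906, 2338 and 4194 genes, against 3254 in the main fit. With each male left out the 5 counts ran from 0 to 15389, 0 to 6728, 0 to 9156, 0 to 2789 and 0 to 8766, with 0 calls in 6 of 22 cases. The cause was not tested.

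Leaving out each male gave differences of -7.08 to -5.91 CPM for the median gene, 2.26 to 3.42 percentage points for the 10 leading genes, -6340 to -5202 genes detected at equal depth, -1.67 to -1.25 for log2 total and 5.69 to 7.57 percentage points for low counts divisible by 2. Without the shallow males these were -3.18, 0.650, -1656, -0.24 and -1.12 (exact permutation, lowest adjusted p = 0.467). With counts from 1 to 10, the last was 5.27 (permutation adjusted p = 0.0824). The median gene differed by -2.07 CPM when scaled by TMM, 5.73 against 7.80 CPM (permutation adjusted p = 0.0104), against -6.22 CPM without it. It differed by -5.67 CPM with limits of 4 and 13 CPM (permutation adjusted p = 0.0145). With limits of 6 and 11 CPM it differed by -4.98 CPM (permutation adjusted p = 0.0132). Without a filter on low counts, 664 genes were called, 228 higher and 436 lower. No paired analysis was possible because the groups are different males and share no replicate number. Of the 7 males with a shallow library 6 were concentrated.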
